A study of Mus musculus with 80 samples.

Results

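The genes described here are 9 pluripotency factors, Pou5f1, Nanog, Sox2, Klf4, Utf1, Zfp42, Esrrb, Tfap2c and Prdm14, read in neonatal mouse male germ cells. They were taken by name from 2 tables, one of 27128 gene rows for sorted cells and one with 27106 usable gene rows for single cells, and all 9 had a row in both. Tfap2c is listed under its older symbol Tcfap2c. All libraries came from germ cells of B6;CBA-Tg(Pou5f1-EGFP)2Mnn/J males at postnatal day 5.5, although the column names of the single-cell table say P6. In these mice a transgene with Pou5f1 (Oct4) regulatory sequence drives green fluorescent protein, and the cells were sorted on that fluorescence (Oct4-GFP). The 71 single cells were Oct4-GFP positive and lacked the receptor KIT. They were captured on a Fluidigm C1 machine, which isolates cells in microfluidic chambers, and carry a deposited cluster name, I (9 cells), II (32), III (24) or IV (6). The sorted populations were CD87 negative and CD87 positive Oct4-GFP+ cells, for which the labels name no KIT sort, with 2 Smart-seq2 libraries each, CD87 being the product of Plaur, the urokinase receptor gene. The other 5 libraries of the series were not analysed here.

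Pluripotency factors are transcription regulators that hold early embryo and embryonic stem cells in a state from which all tissues can form. POU5F1 binds DNA together with SOX2, often at joined SOX and octamer sites, and NANOG, KLF4, ESRRB, TFAP2C and PRDM14 act in the same network, while UTF1 and ZFP42 (REX1) are nuclear proteins long used as markers of that state. In mouse, PRDM14, TFAP2C, POU5F1 and NANOG act in primordial germ cells, and POU5F1 is known to persist in spermatogonia after birth.

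The promoter windows of these genes were read for the sites that POU5F1 and SOX2 are known to bind, since the single-cell question was whether the other factors follow Pou5f1. RefSeq windows on GRCm38.p6, from 250 bases before to 50 bases after each annotated start, matched 7 of the 9 members with 10 windows in all. Searched on both strands were the octamer ATGCAAAT, the SOX motif CATTGTT, and a composite written as CATTGT, any base, then ATGCAAA. The composite shares its last 7 letters with the octamer and its first 6 with the SOX motif. The Nanog window holds the composite, the Zfp42 window holds the octamer, and the main Pou5f1 window, shown for comparison, holds none of the searched motifs. Each is printed on the strand of its gene, with the motif, which reads on the opposite strand, in capitals.
Nanog, chr6:122707239-122707538, plus strand: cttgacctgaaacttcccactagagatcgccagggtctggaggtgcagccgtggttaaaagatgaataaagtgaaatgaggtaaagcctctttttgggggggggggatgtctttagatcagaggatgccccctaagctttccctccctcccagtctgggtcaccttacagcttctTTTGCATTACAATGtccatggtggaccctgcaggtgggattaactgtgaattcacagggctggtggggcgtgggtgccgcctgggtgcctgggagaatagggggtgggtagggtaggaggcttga
Zfp42, chr8:43306960-43307259, minus strand: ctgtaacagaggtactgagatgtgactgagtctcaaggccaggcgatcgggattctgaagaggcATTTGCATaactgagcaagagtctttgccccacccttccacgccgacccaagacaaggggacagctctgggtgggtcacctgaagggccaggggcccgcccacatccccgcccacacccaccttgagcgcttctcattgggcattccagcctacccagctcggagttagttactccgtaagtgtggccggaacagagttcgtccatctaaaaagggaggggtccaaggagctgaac
Pou5f1, chr17:35505782-35506081, plus strand: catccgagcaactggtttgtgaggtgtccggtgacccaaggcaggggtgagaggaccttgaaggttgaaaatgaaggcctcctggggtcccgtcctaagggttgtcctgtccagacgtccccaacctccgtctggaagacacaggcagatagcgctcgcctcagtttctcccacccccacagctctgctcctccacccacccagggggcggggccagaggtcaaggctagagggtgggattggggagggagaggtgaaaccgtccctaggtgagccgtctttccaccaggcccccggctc
The Nanog composite spans bases -75 to -62 from the annotated start, and it occurred in 2 of all 32851 windows (0.00609%), both of them overlapping windows of Nanog. The Zfp42 octamer spans bases -186 to -179, and 570 windows (1.74%) held one. The SOX motif was present in 1243 windows (3.78%), among them a second Pou5f1 window that is not printed. A match describes letters in a window and is not evidence of binding, and the windows come from another build than the deposited tables (mm9).

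The depth of the single cells ranged from 182584 to 6820422 expected counts with a median of 1591516, and 6962 to 13497 genes reached an expected count of 1. For the sorted libraries depth is unknown, since TPM keeps none. CD87 positive library 2 stood apart with 12063 genes above 0 TPM against 15147 to 16267 in the others. All 9 fixed germ cell markers were detected in at least 36 cells, and their summed level was 1115 to 1297 TPM in the 4 sorted libraries. Macrophage and leukocyte markers had summed levels of 15.3 and 11.7 TPM without CD87 and of 365 and 280 TPM with it, with all 14 above 0 in at least 1 library. The 14 Sertoli cell markers summed to 220 and 298 TPM against 205 and 104 TPM, the 7 myoid markers to 23.6 and 17.5 against 47.8 and 84.5 TPM, and the 8 Leydig cell markers to 20.2 and 13.9 against 5.12 and 2.69 TPM. Among Leydig markers Cyp11a1, Cyp17a1, Hsd3b1 and Lhcgr were listed at 0 in all 4 libraries. In the single cells 9 of the 14 macrophage and leukocyte markers were detected in at least 1 cell and 2 of them in at least 36, with a median summed level of 34.6 CPM (3.25 to 163 CPM). The other 5, C1qa, C1qb, C1qc, Adgre1 and Ctss, were in 0 of 71 cells. By the approximate limit of 3 over the number of cells, this allows up to 4.23% of cells with a count for each. The part of other cell types in the differences between CD87 groups was not tested.

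In sorted cells the factors spanned a wide range of levels, with Pou5f1 highest and Prdm14 lowest. Mean levels over the 4 libraries, in length-scaled TPM, were 42.8 ± 17.3 for Pou5f1, 14.05 ± 5.40 for Klf4, 4.77 ± 3.65 for Utf1, 4.40 ± 1.13 for Nanog, 4.33 ± 3.01 for Zfp42 and 2.96 ± 3.63 for Tfap2c (SD, n = 4). Sox2 at 0.63 ± 0.91 TPM, Esrrb at 0.56 ± 0.41 TPM and Prdm14 at 0.12 ± 0.14 TPM (SD, n = 4) were each below 1. Between neighbours in this order, Klf4 and Utf1 alone had ranges over libraries that lay apart. The ranges of all other neighbours overlapped.

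The comparison of CD87 positive with CD87 negative cells asked whether the factors differ with this surface receptor. The test used was limma on log2(TPM + 1) with Benjamini-Hochberg adjustment. Its filter of 1 TPM in at least 2 libraries was passed by 6 of the 9 genes, and none of these 6 was called. Sox2, Esrrb and Prdm14 did not pass it and were not tested. The background was as sparse, since 3 of 12715 genes tested were called higher in CD87 positive cells (0.0236%) and 0 were called lower (0%). At an unadjusted p under 0.05, 428 genes were higher and 201 lower. A share of about 0.05 of genes would pass this with no difference present, so these numbers are not read as differences. Because these are bulk samples, fewer cells of a type and less RNA per cell cannot be told apart. The labels name no animals for these libraries, so the p-values reflect spread between libraries that may be technical alone.

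Pou5f1, the factor whose regulatory sequence drives the sort reporter, read 18.3 and 59.04 TPM in cells without CD87, and 47.4 and 46.5 TPM in cells with it. The CD87 positive values lay inside the wide gap between the CD87 negative libraries. The log2 difference was 0.49 (SE 0.49, limma adjusted p = 0.885). It was -0.32 with CD87 negative library 1 left out. Nanog, a homeodomain factor, was at 2.85 and 5.50 TPM against 4.37 and 4.87 TPM, the same pattern of one low and one high CD87 negative library. Its log2 difference was 0.17 (SE 0.57, limma adjusted p = 0.972), or -0.21 without CD87 negative library 1. Sox2, the DNA-binding partner of POU5F1, was listed at 0 in each CD87 negative library, while the CD87 positive libraries held 1.92 and 0.60 TPM. The groups did not overlap, but the gene did not reach the filter and was not tested.

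Klf4, a zinc finger factor, was at 9.52 and 13.02 TPM without CD87 and 11.8 and 21.9 TPM with it. CD87 positive library 2 was highest and library 1 fell between the CD87 negative values (log2 difference 0.49, SE 0.44, limma adjusted p = 0.873). Esrrb, an orphan nuclear receptor, was at 0.56 and 0.74 TPM against 0.95 and 0 TPM and was not tested. Tfap2c, an AP-2 family factor needed for mouse primordial germ cells, was at 1.10 and 1.83 TPM against 0.56 and 8.35 TPM. Both the lowest and the highest Tfap2c value thus belonged to the CD87 positive group (log2 difference 0.65, SE 0.89, limma adjusted p = 0.915), and without CD87 positive library 2 the difference was -0.64. Prdm14, a PR domain regulator of the mouse germ line, was at 0.24 and 0.25 TPM against 0 in both CD87 positive libraries. Its groups did not overlap and it was not tested.

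Utf1 read 3.99 and 8.34 TPM in CD87 negative cells, then 6.75 and 0 TPM in CD87 positive cells. Zfp42 was at 3.97 and 5.28 TPM against 7.63 and 0.43 TPM. For both genes CD87 positive library 1 lay at the level of the CD87 negative libraries or above, and library 2, the one with the fewest genes, held the lowest value. The log2 differences were -1.29 for Utf1 (SE 0.94, limma adjusted p = 0.863) and -0.67 for Zfp42 (SE 0.85, limma adjusted p = 0.908). They turned to 0.18 and 0.63 when CD87 positive library 2 was left out. With library 1 left out in its place, 3 of the 6 tested members were called, Utf1 at -2.77 (limma adjusted p = 0.000182), Zfp42 at -1.97 (limma adjusted p = 0.0044) and Tfap2c at 1.94 (limma adjusted p = 0.00438). In that fit the lone CD87 positive library is assumed to vary like the CD87 negative pair, and 1169 genes were called higher and 1819 lower.

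**Figure D1:**
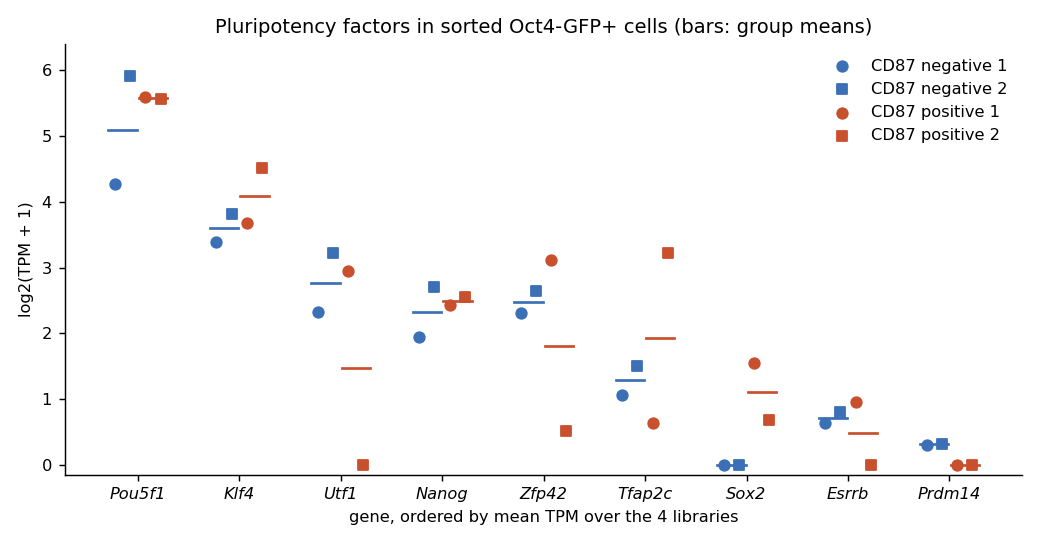
Levels of the 9 factors in the sorted libraries, as log2(TPM + 1) on the vertical axis, with 1 point per library (blue CD87 negative, red CD87 positive, circles library 1, squares library 2) and bars at the group means. Sox2 and Prdm14 are the genes whose groups do not overlap, and for Utf1 and Zfp42 the red square of CD87 positive library 2 is the lowest point.

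Of the 9 members, 2 had groups that did not overlap, Sox2 and Prdm14, both under 2 TPM in every library. Neither was among the 6 tested members, of which 0 lacked overlap, whereas 34.8% of all 12715 genes tested had groups without overlap. For comparison, Plaur, which encodes the sorted marker, was at 0.46 and 0.97 TPM against 3.53 and 8.92 TPM, Kit, a marker of differentiating spermatogonia, at 75.5 and 53.1 against 37.7 and 22.5 TPM, and Gfra1, the GDNF co-receptor of undifferentiated spermatogonia, at 21.3 and 20.8 against 53.1 and 52.9 TPM. None of these passed the adjusted threshold (limma adjusted p = 0.863 for Plaur and Kit and 0.597 for Gfra1).

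The wider pluripotency network was read through 77 genes, of which 55 were tested. The mean was higher in CD87 positive cells for 32 and lower for 23, none was called, and the median log2 difference was 0.15 against 0.01 over all genes tested. After rescaling without the row LOC672857, which moved the median of all genes to -0.11, the network median was 0.03, and without CD87 negative library 1 the median was -0.05 over all genes and 0.04 over the network. Core network partners (13 of 14 tested) had 8 genes higher and 5 lower with a median of 0.24, and naive state regulators (11 of 14) had 7 higher and 4 lower with a median of 0.23. In the LIF receptor pathway, which sustains mouse embryonic stem cells, 5 of 7 tested genes were higher (median 0.20), as were 9 of 13 tested network targets (median 0.20). Of 4 tested primed state genes 3 were lower (median -0.40), and of 9 tested primordial germ cell genes 6 were lower (median -0.14). The genes at the upper end were Tcl1, a co-activator of AKT, Tdh, a threonine dehydrogenase, and Klf2, and at the lower end Zfp296, Klf5 and Kit. Tcl1 read 6.17 and 6.94 TPM against 43.3 and 93.1, with the groups apart (log2 difference 3.10, SE 0.42, limma adjusted p = 0.163). Tdh stood at 2.35 and 2.45 TPM against 3.40 and 24.9 TPM, so its difference of 1.65 leaned on CD87 positive library 2. Klf2 was at 0 and 0.44 TPM against 1.76 and 1.5 TPM, a small level throughout (log2 difference 1.13). Klf5 was at 6.98 and 14.2 TPM against 3.11 and 3.08 TPM, lower in both (log2 difference -1.43), and Zfp296 at 4.44 and 2.32 against 1.41 and 0 TPM (log2 difference -1.45). These last 4 genes each had groups without overlap and a limma adjusted p of 0.863. They were picked for the size of their differences, so their lack of overlap is no separate result. Of the 55 tested network genes, 17 were higher and 12 lower without overlap, beside 34.8% of all genes tested in either direction.

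In the single cells the factors split into 3 ranges of detection, where a gene counts as detected in a cell at an expected count of at least 1. Nanog was detected in all 71 cells, Pou5f1 in 57, Klf4 in 56 and Zfp42 in 50. Prdm14 was detected in 17 cells, Utf1 and Tfap2c in 16 each, Esrrb in 8 and Sox2 in 6. The 71 cells name no animal and are treated as 1 sample, so no test was made across them. Levels below are CPM, each count over its cell's total, which are not scaled to gene length and are compared within a gene only. Intervals are exact Clopper-Pearson 95% intervals, and since PCR reads carried no molecular identifiers they cover counting error only.

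Pou5f1 was detected in 80.3% of cells, with an interval from 69.1% to 88.8%. Its median was 6.69 CPM, with a lower quartile of 1.07, an upper quartile of 16.5 and a maximum of 74.7 CPM. In 14 cells sorted as Oct4-GFP positive its count was under 1, and 6 of these held a count between 0.5 and 1. After each cell was thinned to 182150 counts it was detected in 41 cells. By cluster it was detected in 7 of 9 cells of I, 25 of 32 of II, 19 of 24 of III and 6 of 6 of IV, with medians of 3.93, 5.67, 8.91 and 15.3 CPM. The 6 cells of IV were at 74.7, 17.97, 15.2, 12.8, 1.07 and 15.4 CPM. The ranges of all clusters overlapped, and the highest cell outside IV reached 64.5 CPM in III. The log2 ratio of the mean to all other cells was -0.31 in I, -0.92 in II, 0.66 in III, then 0.89 in IV, while without the highest cell of the cluster it was -0.92 in I and 0.06 in IV. Of the copies of Pou5f1 and Nanog named in RefSeq, 1 of 9 was matched to a row, Pou5f1-rs4 (LOC435755), which was listed at 0 TPM in all 4 sorted libraries and was detected in 2 cells with at most 1.74 expected counts.

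Nanog had a median of 353 CPM over cells and a range from 19.2 to 2386 CPM. Cluster medians were 636 CPM in I, 481 in II, 255 in III, then 201 in IV, and the cell ranges of all clusters overlapped. The log2 ratio of the cluster mean to all other cells was 1.04 in I, 0.15 in II, -0.99 in III, then 0.07 in IV. A single cell of IV, at 1901 CPM, held 61.9% of that cluster's sum, and without it the ratio of IV was -1.05. This level stood out against the sorted cells. With single-cell counts divided by the length of the longest GENCODE M21 transcript and both assays brought to the same total over 15068 shared genes, Nanog was at 626 in single cells and 10.5 in the sorted libraries, in the units of TPM. Per length it was the highest of the members in single cells, followed by Klf4 at 45.4. The log2 ratio of 5.77 lay at the 99.5th percentile of all compared genes, whose median was 0.23. Pou5f1 was at the other side, at 26.7 against 102 (log2 ratio -1.89, percentile 7.94). The other 7 members lay between -0.83 for Sox2 and 1.18 for Prdm14. Cell capture, library method, quantifier and sorted population all differ between the assays and cannot be told apart. Nanog has near-identical pseudogenes, and neither Nanog-ps1 nor Nanog-ps2 was matched to a row, so reads of these copies cannot be separated from those of Nanog and its level is uncertain.

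**Figure D2:**
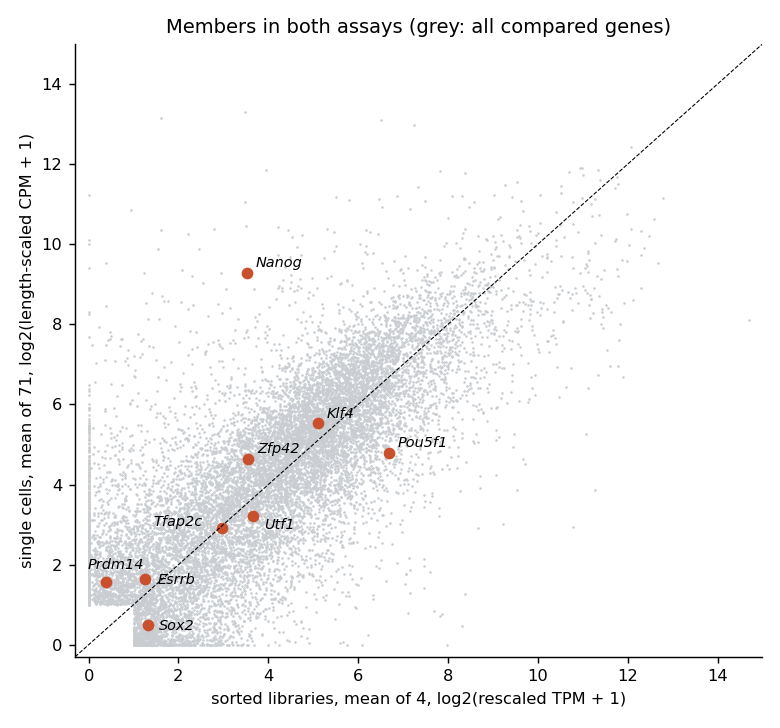
Mean level of each gene in the 4 sorted libraries (horizontal, log2 of rescaled TPM plus 1) against the mean in 71 single cells (vertical, log2 of length-scaled CPM plus 1), for 15068 genes in grey and the 9 members in red, with a dashed line of equality. Nanog lies far above the line (percentile 99.5 of the log2 ratios) and Pou5f1 below it (percentile 7.94). All members but Nanog lie within about the cloud of genes.

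Klf4 reached 402 CPM with a median of 17.9 CPM and was detected in 78.9% of cells (interval 67.6% to 87.7%). The cells of cluster IV were at 71.6, 189, 193, 256, 4.61 and 170 CPM. All but 1 of these 6 cells lay above the upper quartile of all cells, 68.1 CPM. Cluster medians were 36.4 CPM in I, 5.55 in II, 23.4 in III, then 179 in IV, and the log2 ratio to all other cells was 1.87 in IV and -1.73 in II. The highest cell of all, at 402 CPM, was in I and held 65.7% of that cluster's sum, and the log2 ratio of I was 0.56 with it and -0.78 without it. In the thinned counts the medians kept the order, with 32.9 CPM in I, 5.49 in II, 21.96 in III, then 176 in IV.

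Zfp42 reached 115 CPM with a median of 3.26 CPM and was detected in 70.4% of cells (interval 58.4% to 80.7%). It was found in 6 of 9 cells of I, 25 of 32 of II, 17 of 24 of III and 2 of 6 of IV. Its medians in this order were 2.36, 5.71, 3.00 and 0 CPM, and the log2 ratio to all other cells was lowest in I at -1.35 (-1.95 without the highest cell of I). Utf1 was detected in 22.5% of cells (interval 13.5% to 34%) and reached 55.9 CPM, in 2 cells of I, 10 of II, 3 of III and 1 of IV. Of these 16 cells, 6 were at 10 CPM or more, so most of the signal came from few cells.

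Sox2 was detected in 8.45% of cells (interval 3.16% to 17.5%) and reached 5.46 CPM, with 12.2 expected counts at most. Its cells were 5 of cluster II and 1 of cluster III. Counts of 0 in the 9 cells of I and the 6 of IV allow up to 33.6% and 45.9% of cells with a count. This is no limit on cells that express the gene. Esrrb was detected in 11.3% of cells (interval 4.99% to 21%) and reached 80.7 CPM. It was in 6 cells of II and 2 of III and in no cell of I or IV, with the same limits as Sox2, and 4 cells were at 10 CPM or more. Tfap2c was detected in 22.5% of cells and reached 107 CPM, in 2 cells of I, 5 of II, 6 of III and 3 of IV. Its log2 ratio of 1.58 in I rested on 1 cell with 66.6% of the cluster's sum and was 0.29 without that cell.

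Prdm14 was detected in 23.9% of cells (interval 14.6% to 35.5%), 13 of them in II, 3 in III, 1 in IV and 0 in I. A further 15 cells held an expected count between 0.5 and 1, mostly about 1 read, and with these the counts by cluster were 0, 23, 7 and 2. In thinned cells it was detected in 5 cells of II, 3 of III and 1 of IV. A single cell of II, at 90.1 CPM, held 71.2% of the summed CPM over all cells, and the next highest count was 8.70. The log2 ratio of II to all other cells was 1.89 with that cell and 0.56 without it.

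**Figure D3:**
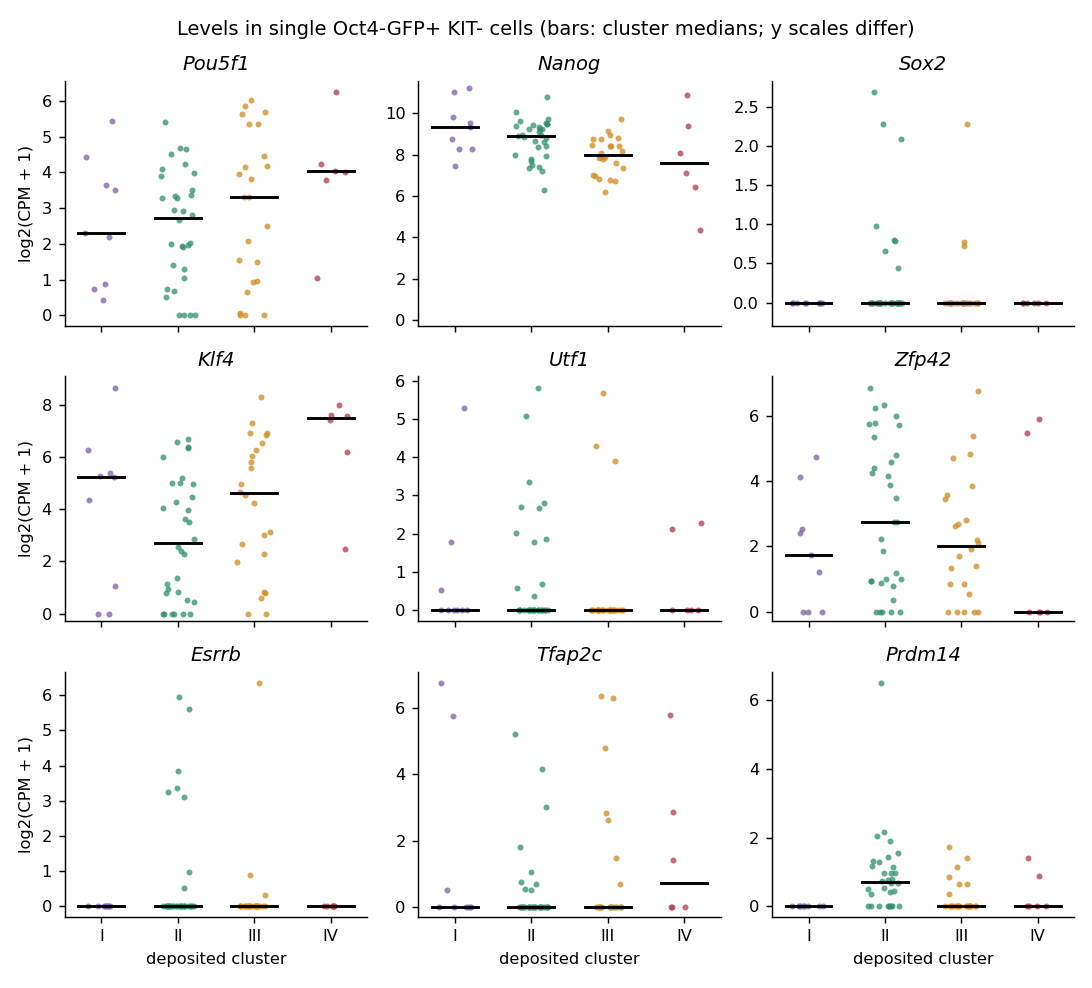
Levels of the 9 factors in 71 single cells by deposited cluster, as log2(CPM + 1) on a vertical axis whose scale differs between panels, with 1 point per cell and bars at cluster medians. Klf4 medians are highest in cluster IV and lowest in II, and Nanog medians are highest in I and lowest in IV. Sox2, Utf1, Esrrb, Tfap2c and Prdm14 are at or near 0 in most cells.

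The clusters were made from these same cells, so a cluster against the others is a description. Among the 7 members in at least 10 cells, the cluster mean differed at least 2-fold from all other cells for 4, 3, 1 and 3 of them in clusters I to IV. When the highest cell of each gene was left out, the numbers were 1, 2, 0 and 1, and Prdm14 was no longer in any of the 4 counts. When the highest cell within each cluster was left out in its place, they were 3, 3, 3 and 5. That trim takes a cell from the cluster and none from the other cells, so it can only lower a ratio and can add 2-fold losses. With all cells kept, the shares over all 14861 genes in at least 10 cells were 24.9%, 9.27%, 10.6% and 33.8% in the same order. No such share was computed with highest cells left out, so these stand beside the first set of counts only. Depth moved with the clusters as well, with a median total of 1125403 counts in IV and 1607438 in II, and its part in these ratios was not tested beyond the thinned values given.

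A cell held a median of 4 of the 9 factors, from 2 in 4 cells to 8 in 1 cell. Nanog counted in every cell, although reads of its copies cannot be separated from its own. The cell with 8 was the deepest of all, at 6820422 counts, and at equal depth the median was 3. Most partners were detected in similar shares of cells with and without Pou5f1. Klf4 was detected in 45 of 57 cells with Pou5f1 and in 11 of 14 without it, Zfp42 in 41 and 9, Utf1 in 13 and 3, Tfap2c in 13 and 3, and Esrrb in 6 and 2. Sox2 was detected in 6 of the 57 and 0 of the 14, and Prdm14 in 15 and 2. Median Nanog levels were 340 CPM in cells with Pou5f1 and 491 CPM in those without.

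The rank correlations of the other factors with Pou5f1 from cell to cell were all near 0 before thinning. Spearman's rho on log2(CPM + 1) over the 71 cells was -0.11 for Nanog, -0.05 for Sox2, -0.03 for Klf4, 0.08 for Utf1, 0.06 for Zfp42, -0.01 for Esrrb, 0.06 for Tfap2c and 0.07 for Prdm14. Pearson's r ranged from -0.12 for Nanog to 0.10 for Utf1. The points share a capture method and a sequencing scale and differ in depth, and Pou5f1 itself had a rho of -0.10 with the total count. Over 14860 genes detected in at least 10 cells the median rho was -0.01, with 5th and 95th percentiles of -0.21 and 0.20. All 8 members lay between these, although Sox2 and Esrrb, in under 10 cells each, are not among the ranked genes. A size of 0.3 was reached by 1.31% of the ranked genes and by 0 of the 8 members. In thinned counts rho was 0.19 for Tfap2c, 0.17 for Zfp42 and -0.09 for Prdm14, and between -0.11 and 0.08 for the others. The 5th and 95th percentiles of the same ranked genes were then -0.21 and 0.19, so Tfap2c and Zfp42 lay near the upper one. With many zeros in the rarer genes a rho near 0 says little about them, whereas Nanog, Klf4 and Zfp42 were detected in most cells. Their values are limited too. Pou5f1 itself reached an expected count of 5 in 45 of the 71 cells and was detected in 41 of them after thinning. The Nanog level is also uncertain, because reads of its copies cannot be separated. Inside clusters, Klf4 had a rho of -0.38 over the 32 cells of II and 0.02 over the 24 of III, and Prdm14, detected in 3 cells of III, had 0.46 there and -0.05 in II. Over all genes ranked, the 5th and 95th percentiles were -0.28 and 0.31 in II and -0.32 and 0.38 in III. Of the 36 pairs among the 9 members, 1 reached 0.3 in size, Utf1 with Esrrb at 0.31, with 4 cells detecting both and a rho of 0.13 in thinned counts. Kit, whose transcript was detected in 36 of these KIT negative cells, Plaur and Gfra1 had rho values of -0.12, -0.10 and -0.14 with Pou5f1.

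**Figure D4:**
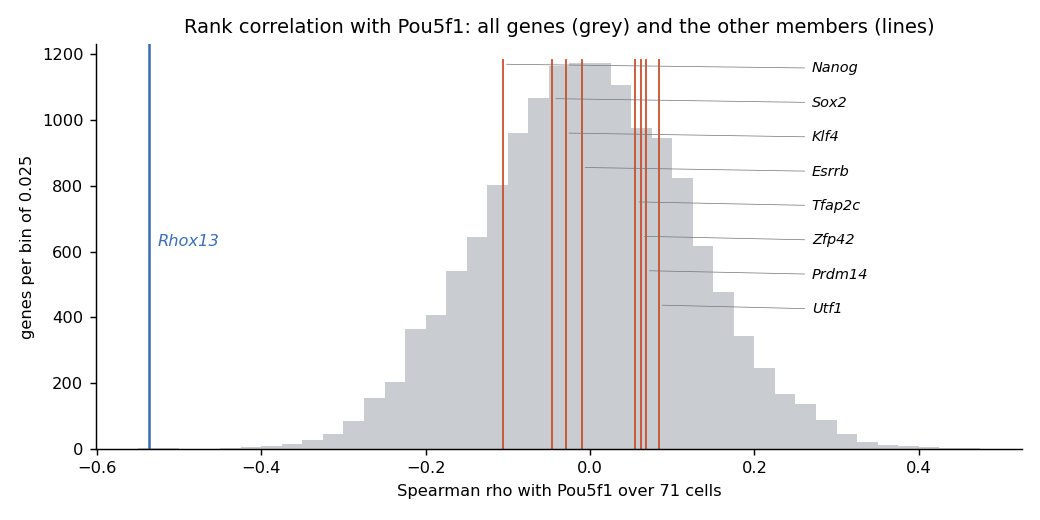
Distribution of Spearman's rho with Pou5f1 over 71 cells for 14860 genes (grey, genes per bin), with a red line for each of the 8 other members and a blue line for Rhox13. The 8 red lines lie between -0.11 and 0.08 in the middle of the distribution, and Rhox13 lies at its lower end.

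The genes most and least like Pou5f1 are the ends of a long ranking, and how large such ends would be among unrelated genes was not tested. Among 10099 genes detected in at least 36 cells, the 5 highest were Hsdl1 at 0.46, 1700065D16Rik at 0.44, Dnm3os at 0.43, Nt5c2 at 0.42 and Serinc5 at 0.41. In thinned counts Hsdl1 was at 0.35 and Serinc5 at 0.34, and Nt5c2, 1700065D16Rik and Dnm3os fell to between 0.16 and 0.25. The 5 lowest were Rhox13 at -0.54, Tmem59l at -0.51, Gspt1, a translation termination factor, at -0.43, EG433885 at -0.42 and Lrp1, a lipoprotein receptor, at -0.40. Rhox13, a homeobox gene of male germ cells and 1 of the 9 fixed germ cell markers, is listed as 1700123J19Rik and was detected in 59 cells at a median of 9.17 CPM. Its rho was -0.47 in thinned counts, -0.45 in cluster II, -0.57 in III and -0.55 over the 57 cells with Pou5f1. These values reuse the cells in which Rhox13 was picked as the lowest gene, so they are no separate result. In the sorted libraries Rhox13 was at 42.9 and 54 TPM (CD87 negative) and at 50.9 and 36.3 TPM (CD87 positive), overlapping groups in which no opposite course to Pou5f1 could be read from 4 values.

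**Figure D5:**
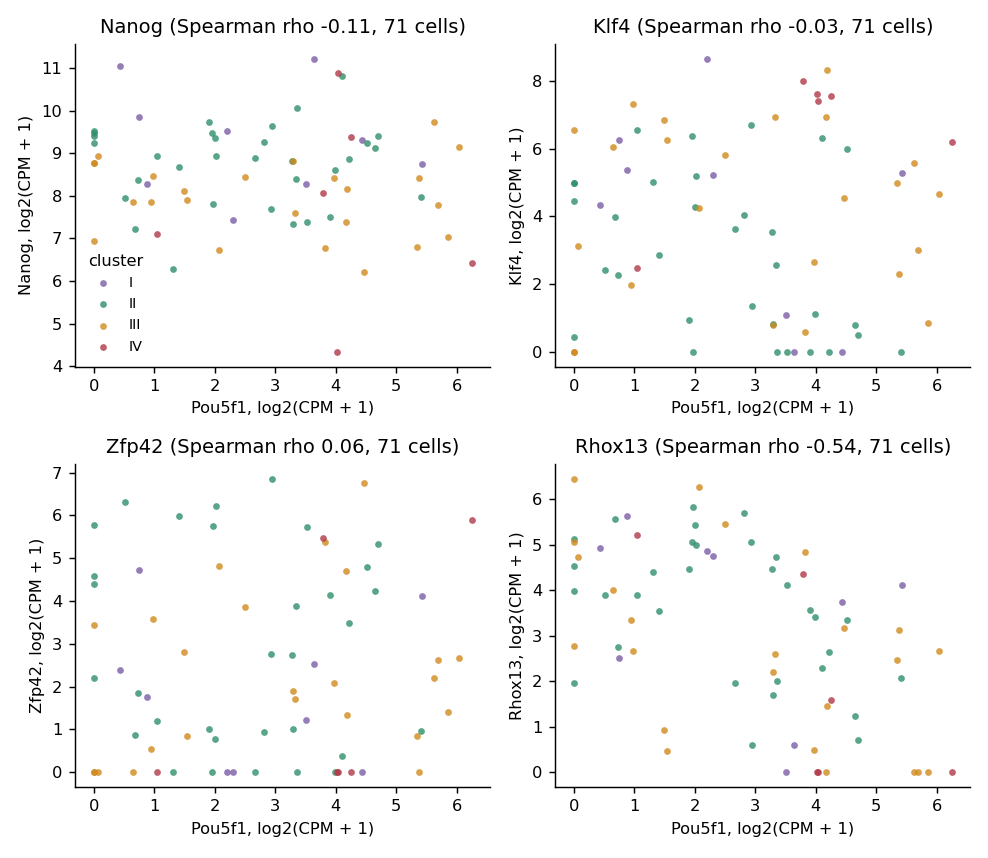
Nanog, Klf4, Zfp42 and Rhox13 against Pou5f1 in 71 single cells, all as log2(CPM + 1), with 1 point per cell coloured by cluster. The first 3 have rho values near 0 (rho -0.11, -0.03 and 0.06). Rhox13, shown as the gene with the lowest rho, tends to be lower where Pou5f1 is higher (rho -0.54), with exceptions.

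The genes most like the other members were found by the same measure. Nanog was most like LOC664895 at 0.81 and Tapbpl, a relative of the antigen-loading factor tapasin, at 0.80, and these rho values were 0.79 and 0.76 in thinned counts. Both genes were detected in all 71 cells, with medians of 1631 and 1100 CPM, and were at 28.99 to 43.8 and 94.3 to 113 TPM in the sorted libraries. The single-cell level of Nanog is uncertain, since reads of its copies cannot be separated from its own. What part this has in its rho values was not tested. The closest genes of the 5 other members measured this way had lower rho values, and Sox2 and Esrrb, in under 10 cells each, were not ranked. Klf4 was most like Rapgef6 (0.44) and Dnaja1 (0.41), Zfp42 like Tpt1 (0.47) and Lats2 (0.44), and Utf1 like E330016A19Rik (0.43) and Zfp106 (0.40). Tfap2c was most like Ppp1r9a (0.46) and 5830477G23Rik (0.41), and Prdm14 like Pcdh15 (0.47) and Sytl4 (0.47). In thinned counts the values were 0.34 and 0.45 for Klf4, 0.24 with Tpt1 and 0.55 with Lats2 for Zfp42, 0.26 and 0.29 for Utf1, 0.30 and 0.23 for Tfap2c, and 0.18 and 0.13 for Prdm14. Before thinning, Tpt1 had a rho of 0.40 with the total count.

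Among the 77 network genes, those with the largest rho in size against Pou5f1 were Trim71 at 0.33, Arid3b at 0.32, Tcl1 at -0.26, Tfcp2l1 at 0.24 and Sox3 at 0.23. In thinned counts Trim71, a stem cell RNA-binding ubiquitin ligase, was at 0.19 and Arid3b, an AT-rich DNA-binding protein, at 0.22. Tcl1 was detected in 61 cells with medians of 74.4 CPM in I, 87.4 in II, 38.98 in III, then 0 in IV, the reverse of the order of Klf4 in II and IV. By list, 1 of 13 core network partners and 1 of 14 network targets detected in at least 10 cells reached 0.3, and 0 of 11 naive state regulators, 0 of 7 LIF pathway genes, 0 of 6 primed state genes and 0 of 10 primordial germ cell genes did. Their median rho values ran from -0.06 for core partners to 0.08 for primed state genes, beside -0.01 over all genes.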

How the data were processed

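Sorted-cell values are TPM per gene, made by the authors with Trim Galore and RSEM on mm9, and single-cell values are expected counts made with Trim Galore and Salmon, both per the submitters' processing notes. Versions and annotation are not given in sources used here. TPM keeps no depth, and 22 rows whose names had become dates (at most 0.609% of a cell's counts) were left out of single-cell results. The 9 members and all gene lists were chosen with earlier results of these data known. Of 143 listed symbols, 134 matched directly and 9 through older symbols.

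The CD87 comparison used limma 3.58.1 under R 4.3.3 (two-sided, empirical Bayes with trend, Benjamini-Hochberg at 0.05) on log2(TPM + 1), which understates changes of low genes, for genes with TPM of at least 1 in 2 libraries. A gene could pass this filter through 1 group alone. Equal library numbers are not stated to pair libraries, and deviations of same-numbered libraries had a correlation of 0.07.

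For single cells, CPM was computed from the deposited expected counts and the column totals. Depth was equalised by thinning to 182150 counts, and log2 cluster ratios use means plus 1 CPM. The ranking of Spearman's rho covers genes detected in at least 10 cells. Expected counts were rounded for thinning alone. Length scaling used the longest transcript, found for 91.0% of rows at a mean of 1 TPM or CPM. Named genes were all members, the network genes at the 3 highest and 3 lowest CD87 differences and the 5 largest rho, and the genes most like each of the 7 members detected in 10 cells. Alternatives covered pseudocount, filters, thinning, clusters and single libraries.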

Additional observations from a re-analysis of the deposited data

How the results depend on the processing

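Of 60 alternative values of the members' CD87 difference, 52 kept both direction and call. The directions that turned were Pou5f1 (-0.32) and Nanog (-0.21) without CD87 negative library 1 (1.31 and 0.54 without library 2), and Utf1 (0.18), Zfp42 (0.63) and Tfap2c (-0.64) without CD87 positive library 2 (-2.77, -1.97 and 1.94 without library 1). The count of members called ranged from 0 to 3 when libraries were left out, with the 3 calls arising without CD87 positive library 1. Outside that setting no member's limma adjusted p was below 0.655. The number of genes higher in CD87 positive cells, 3 as reported, was 1 at a pseudocount of 0.1, 1 without the filter, 1 after rescaling without LOC672857, 0 without the trend, and 8 to 1169 with 1 library left out. With the replicate block it was 84, and the number lower was 46, against 0 as reported. Without the block but with 1 library left out the number lower was 1 to 1819. In these fits the lone library of a group is assumed to vary like the other pair. The cause of these changes was not tested. In single cells, 54 of 64 alternative rho values moved by under 0.12, and 110 of 140 alternative cluster ratios by under 1.5 times. The limit of 0.12 is wider than the largest reported rho in size, -0.11 for Nanog, so a rho could change sign within it. The 64 alternative rho values ran from -0.38 to 0.46. The alternatives without a highest cell (of all cells or of the cluster) and with counts under 0.5 set to 0 were chosen after the data were seen. The median difference of the network genes was 0.03 after rescaling and 0.04 to 0.26 with 1 library left out, against 0.15 as reported. At equal depth Pou5f1 was detected in 41 cells, Klf4 in 45, Zfp42 in 34 and Prdm14 in 9.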
